A study of Homo sapiens with 32 samples.

Results

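Start sites with at least 10 RPM in a single CAGE library of BicR cells, and with under 1 RPM in nearly every other library of the same experiment, were collected into 1 set of 219 sites, out of 13294 sites listed for LNCaP and BicR cells. The set was chosen from measured values. A site entered it when it had at least 10 RPM (tags scaled to a common library total) in the library labelled BicR, dihydrotestosterone (DHT) with bicalutamide, 6 h, and under 1 RPM in each of 15 other libraries. The 2 remaining libraries, both of LNCaP at 6 h, were not part of the rule. These are the library of DHT with bicalutamide and the library of bicalutamide alone. Below, the library that chose the sites is called the BicR-labelled combination library, and the 2 remaining ones the LNCaP combination library and the LNCaP bicalutamide library. All 3 are 6 h libraries.

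The experiment treated LNCaP and BicR, human prostate cancer cell lines, with 10 nM DHT plus 1 µM bicalutamide, 1 µM bicalutamide, 10 nM DHT or ethanol (the vehicle), and sampled each at 6 h and 24 h, with an untreated library of each line at 0 h. That gave 9 libraries per line and 1 library per condition, so differences among the 18 libraries carry no test. A separate time course in LNCaP with the synthetic androgen R1881 had 2 libraries at each of 0, 3, 6, 12, 18, 48 and 72 h. The sample characteristics give 1 nM R1881 while the shared treatment protocol gives 10 nM for 24 h. Which dose was used is not settled by the labels. All cells of both experiments spent the days before treatment in phenol-red-free medium with charcoal-treated serum, which is low in steroid hormones. The labels do not spell out the name BicR, say whether it is a clone, or say whether replicates came from separate cultures.

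Cap analysis of gene expression (CAGE) reads the capped 5′ ends of RNAs, so a site marks where transcription started, and many promoters are active only in some cell types. LNCaP cells respond to androgens through the androgen receptor. DHT is the natural ligand that activates the receptor, and bicalutamide is an antagonist that competes for it.

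Libraries of the 18 held 4139807 to 7753336 tags in the table, and 3 tags, the most that a count of 0 allows, were worth 0.326 to 0.601 RPM. The BicR-labelled combination library went partly against its label, as the line-specific sites below show. It was the sole library to reach 10 RPM at 383 sites, against 4 to 80 sites for each of the other 17 libraries. At 61 sites it had at least 10 RPM while every other library stayed under 1 RPM, against 0 such sites for each of the other 17. At 244 sites it had at least 10 RPM and at least 5-fold the highest of the other 17, against 0 to 1 site for any other library. The 61 sites are members by the rule and the other counts overlap with it, so they describe the values that chose the set and support nothing further.

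The line label was checked with sites that separate the lines in the 15 other libraries, where a site counts as line-specific with at least 5 RPM in every library of its line and under 1 RPM in every library of the other. The 8 BicR-specific sites summed to 110 RPM in the BicR-labelled combination library, against 200 to 261 RPM in the other 8 BicR libraries, which is 51.4% of their median. It was below every other BicR library at 7 of the 8 sites. The 9 LNCaP-specific sites summed to 53.7 RPM there, against 0.579 to 1.78 RPM in the other 8 BicR libraries, and it was above each of these at 9 of 9 sites. This level is 45.5% of the median of the 7 other LNCaP libraries, which ranged from 103 to 169 RPM. The LNCaP-specific sites on chromosome 11 all lie between 4665212 and 4772683, so the 9 sites are not all far apart. The library thus held start sites of both lines.

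**Figure D1:**
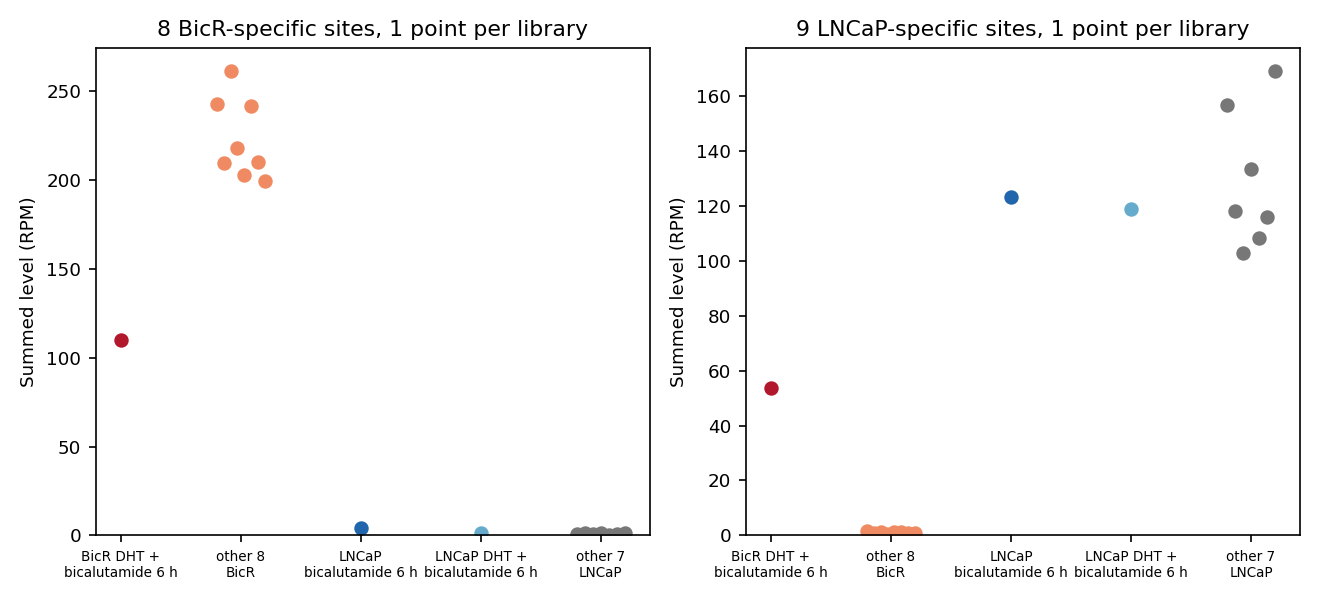
Summed level (RPM) of 8 BicR-specific sites (left) and 9 LNCaP-specific sites (right), with 1 point per library. The BicR-labelled combination library lies at 110 and 53.7 RPM, between the levels of the 2 lines on both panels. The LNCaP bicalutamide and LNCaP combination libraries lie with LNCaP on the right and at 4.10 and 1.41 RPM on the left.

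Single sites showed the same. The BicR-specific site on chromosome 10 at 30024276 (minus strand) had 55.5 RPM in the BicR-labelled combination library, against 74.2 to 97.6 RPM in the other 8 BicR libraries and 0 to 0.121 RPM in the 7 other LNCaP libraries. This 1 site gave 55.5 of the 110 RPM of the 8 BicR-specific sites, and the sites varied in proportion. That on chromosome 13 at 80055110 (minus) had 7.42 RPM, against 25.5 to 52.7 RPM in the other 8 BicR libraries. The LNCaP-specific site on chromosome 11 at 4665212 (plus strand) had 10.6 RPM there, against 0 to 0.237 RPM in the other 8 BicR libraries and 20.3 to 49.3 RPM in the 7 other LNCaP libraries. The LNCaP bicalutamide library had 4.10 RPM over the BicR-specific sites and the LNCaP combination library 1.41 RPM, against 0.495 to 1.48 RPM in the 7 other LNCaP libraries. The part of this overlap in the levels of the 219 sites was not tested, and in such bulk libraries fewer cells of a type and less RNA per cell cannot be told apart. How start sites of both lines came to be in 1 library was not tested either, whether before or after the cells were collected.

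The 219 sites held 38149 tags in the BicR-labelled combination library, 0.922% of its tags (exact binomial 95% interval 0.912 to 0.931%). They held 5408 tags or 0.0711% in the LNCaP bicalutamide library (0.0692 to 0.0730%) and 1079 tags or 0.0203% in the LNCaP combination library (0.0191 to 0.0216%). Intervals cover counting error only. The summed levels were 7648, 599 and 169 RPM, against 6.11 to 26.6 RPM in the other 15. The highest of these 15 was BicR with DHT at 6 h, with 183 tags, and the other 14 held 44 to 111 tags and 6.11 to 12.1 RPM. The rule set a minimum for the first of these levels and capped those of the 15. It left the levels of the LNCaP bicalutamide and LNCaP combination libraries free.

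**Figure D2:**
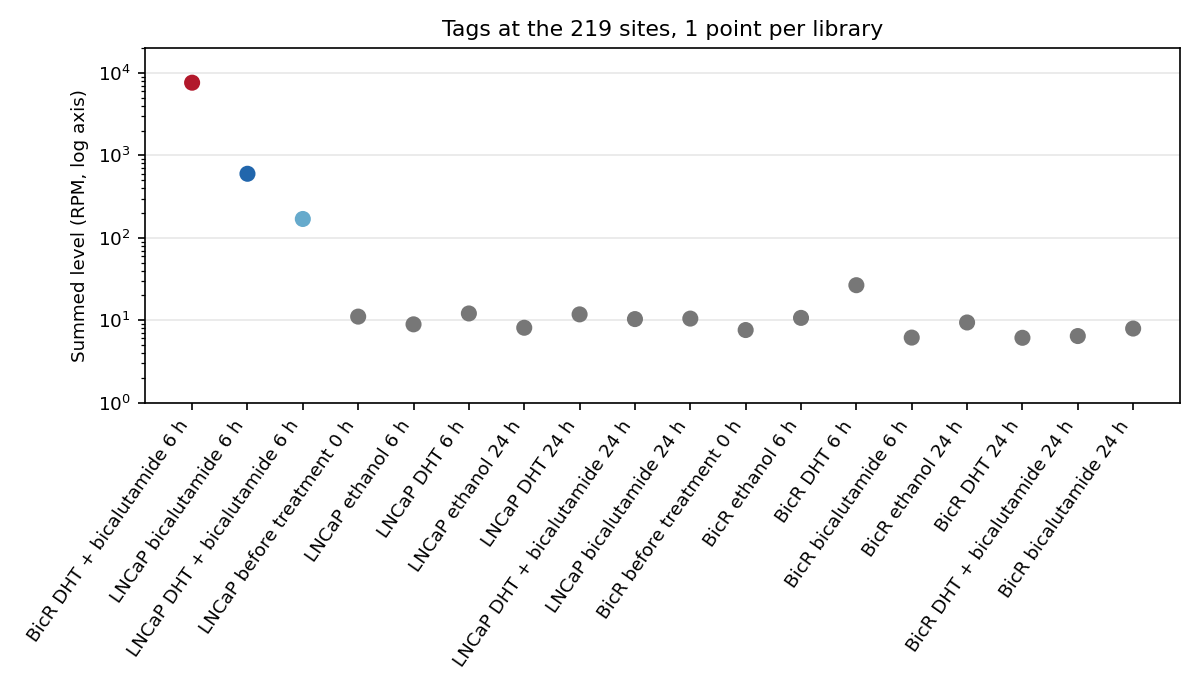
Summed level of the 219 sites (RPM, log axis) in each of the 18 libraries, with 1 point per library. The 3 libraries at the left reach 7648, 599 and 169 RPM, and the other 15 lie at 26.6 RPM or below.

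Other libraries that received bicalutamide are among the 15 that the rule held under 1 RPM at each site, so their low levels are set by the choice. DHT with bicalutamide at 24 h gave 6.41 RPM over the sites in BicR and 10.3 RPM in LNCaP. Bicalutamide alone gave 6.14 RPM in BicR at 6 h, 7.91 RPM in BicR at 24 h and 10.4 RPM in LNCaP at 24 h.

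Within the BicR-labelled combination library, the level per site had a median of 18.6 RPM and ran from 10.0 to 388 RPM. It was at least 100 RPM at 14 sites, 50 to under 100 RPM at 26, 20 to under 50 RPM at 64 and 10 to under 20 RPM at 115. The 12 strongest sites held 2185 RPM, or 28.6% of the sum. In the LNCaP bicalutamide library the median was 1.66 RPM (0.111 to 19.5 RPM), every one of the 219 sites had a tag and 157 had at least 1 RPM. In the LNCaP combination library the median was 0.471 RPM (0 to 6.43 RPM), 204 sites had a tag and 47 had at least 1 RPM. In each of the other 15 libraries 27 to 92 sites had a tag.

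The LNCaP bicalutamide library, whose values the rule did not use, was above each of the 7 other LNCaP libraries at 219 of 219 sites, and 9.82% of all 13294 sites lay so. The LNCaP combination library was above each of the 7 at 190 of 219 sites, against 9.00% of all sites. The rule held these 7 under 1 RPM, so both counts are a description. The LNCaP bicalutamide library exceeded the LNCaP combination library at 211 of 219 sites. All 219 sites were highest of the 18 libraries in the BicR-labelled combination library, which the rule nearly fixes, and 891 of the 13075 other sites were also highest there.

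The strongest site was on chromosome 2 at 197059062 (hg19, plus strand). It had 388 RPM in the BicR-labelled combination library, 4.65 RPM in the LNCaP bicalutamide library and 2.82 RPM in the LNCaP combination library, and at most 0.145 RPM in the other 15, where 13 libraries had no tag. The site on chromosome 18 at 69929218 (plus) had 320, 7.64 and 2.20 RPM in these 3 libraries and at most 0.726 RPM elsewhere. On chromosome 11, the site at 9461637 (plus) had 254, 1.77 and 0.784 RPM and at most 0.145 RPM elsewhere. These 3 sites carried the most tags in the BicR-labelled combination library while their LNCaP levels were among the lower ones of the strong sites.

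The next sites differed from them in proportion. The site on chromosome 5 at 38595507 (minus) had 169 RPM in the BicR-labelled combination library, 19.5 RPM in the LNCaP bicalutamide library and 6.43 RPM in the LNCaP combination library, the highest level of any of the 219 in both LNCaP libraries. On chromosome 12, the site at 13044496 (plus) had 148, 17.5 and 4.86 RPM in the same order. Also on chromosome 12, the site at 52627030 (plus) had 145, 15.8 and 5.02 RPM. Each of these exceeded the site on chromosome 2 at 197059062 in both LNCaP libraries and fell short of it in the BicR-labelled library.

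IGFBP7 is the only gene name paired here with a site, at chromosome 4, minus strand, position 57976551 counted from 1. The name came with the rule that chose the set and was not checked against an hg19 annotation. IGFBP7 encodes a secreted protein that binds insulin-like growth factors and is known from vessel walls and stroma, among other cells. The site had 123 RPM (615 tags) in the BicR-labelled combination library, 13.1 RPM (118 tags) in the LNCaP bicalutamide library and 3.14 RPM (20 tags) in the LNCaP combination library. In the other 15 it ranged from 0 to 0.581 RPM with a median of 0.116 RPM. The highest of these was BicR with DHT at 6 h (4 tags), LNCaP with DHT at 6 h had 2 tags, and 7 libraries had none. In the other 14 of these 15 the site had at most 2 tags, so start-site use there was near or under what this depth can detect.

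The remaining strong sites were of both kinds. The site on chromosome 2 at 211421325 (plus) had 141, 18.5 and 5.33 RPM in the BicR-labelled combination, LNCaP bicalutamide and LNCaP combination libraries, the site on chromosome 2 at 56150917 (minus) 132, 15.7 and 3.14 RPM, and the site on chromosome 11 at 35160718 (plus) 119, 12.9 and 2.98 RPM. The site on chromosome 13 at 80715295 (plus) had 135, 2.66 and 2.82 RPM, and the site on chromosome 9 at 117629387 (plus) 110, 3.99 and 3.45 RPM. In the last 2 the LNCaP libraries were nearly level with each other.

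The ratio of the LNCaP bicalutamide level to the BicR-labelled level ran from 0.697% to 45.4% per site, with a median of 9.04% and quartiles of 4.58 and 11.6%. Its distribution had 2 humps: 21 sites lay at 2 to 3%, 7 at 5 to 6% and 23 at 11 to 12%. The ratio of the LNCaP combination level ran from 0 to 8.79%, with a median of 2.17%. Across the 219 sites the levels correlated at a Spearman rho of 0.658 between the BicR-labelled and LNCaP bicalutamide libraries, 0.649 between the BicR-labelled and LNCaP combination libraries, and 0.703 between both LNCaP libraries. These are descriptions over sites that share each library's depth and were chosen by the first of them.

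**Figure D3:**
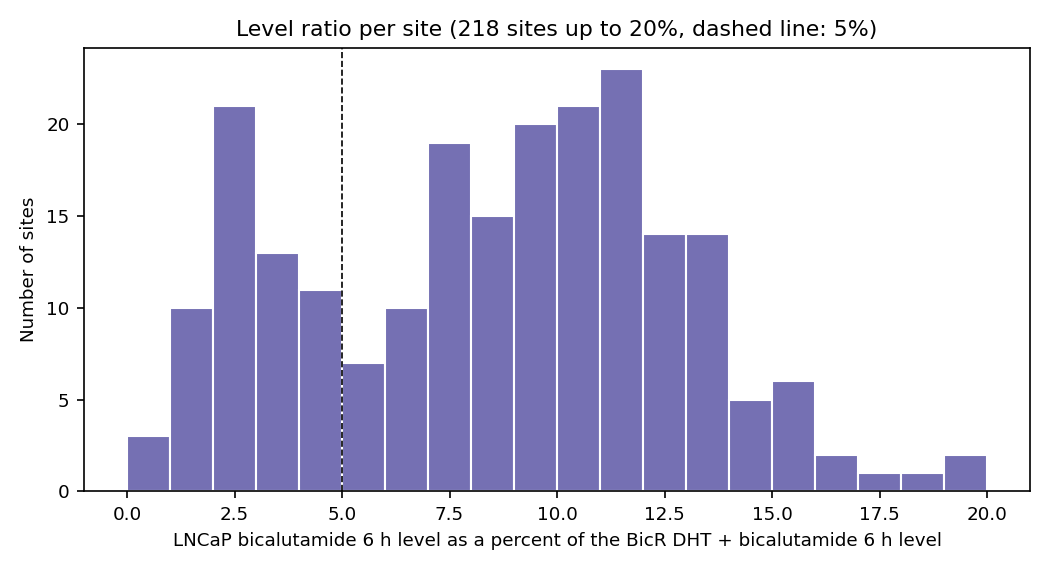
Number of sites by the LNCaP bicalutamide level as a percent of the BicR-labelled combination level, in bins of 1 percentage point, for the 218 sites up to 20%. The sites form humps at 2 to 3% and at 11 to 12% on either side of the dashed line at 5%.

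The ratio was also set against counting error. Of the tags that a site had in the BicR-labelled combination and LNCaP bicalutamide libraries together, 12.4% lay in the LNCaP library over all sites. The exact 95% interval of a site's own share lay below this value at 39 sites, above it at 40, and held it at 140. For the LNCaP combination library the pooled share was 2.75%, and intervals lay below it at 10 sites, above it at 12 and held it at 197. Within the tags of both LNCaP libraries, 16.6% were in the combination library, with 3 sites below, 9 above and 207 holding it.

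A split at 5%, set after the values were seen and so without a test, gave 58 sites of low ratio and 161 of high ratio. Pooled, the LNCaP bicalutamide level was 2.33% of the BicR-labelled level in the low group and 10.8% in the high group. The LNCaP combination level was 49.5% of the LNCaP bicalutamide level in the low group and 25.8% in the high group. Of the BicR-labelled level it was 1.15% in the low group and 2.78% in the high group. Both the LNCaP bicalutamide and the BicR-labelled level entered the split, so it bears on all of these percentages by construction. Of the low group 24 sites (41.4%) had no tag in any of the other 15 libraries, against 28 of the high group (17.4%). The low group held 68 tags in those 15 libraries in all, of which 43 were in BicR with DHT at 6 h and 9 in LNCaP with DHT at 6 h, with 0 to 5 in each of the other 13. The high group held 1103 tags, with 44 to 140 in each of the 15. Outside the 3 libraries, tags at low-ratio sites thus lay mostly in 1 library, BicR with DHT at 6 h, and tags at high-ratio sites were spread over all 15. The same library held the most high-ratio tags (140), followed by LNCaP with DHT at 6 h (102), the deepest of the 18 with 7753336 tags. The rule capped all 15 libraries at each site, so these counts are a description.

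**Figure D4:**
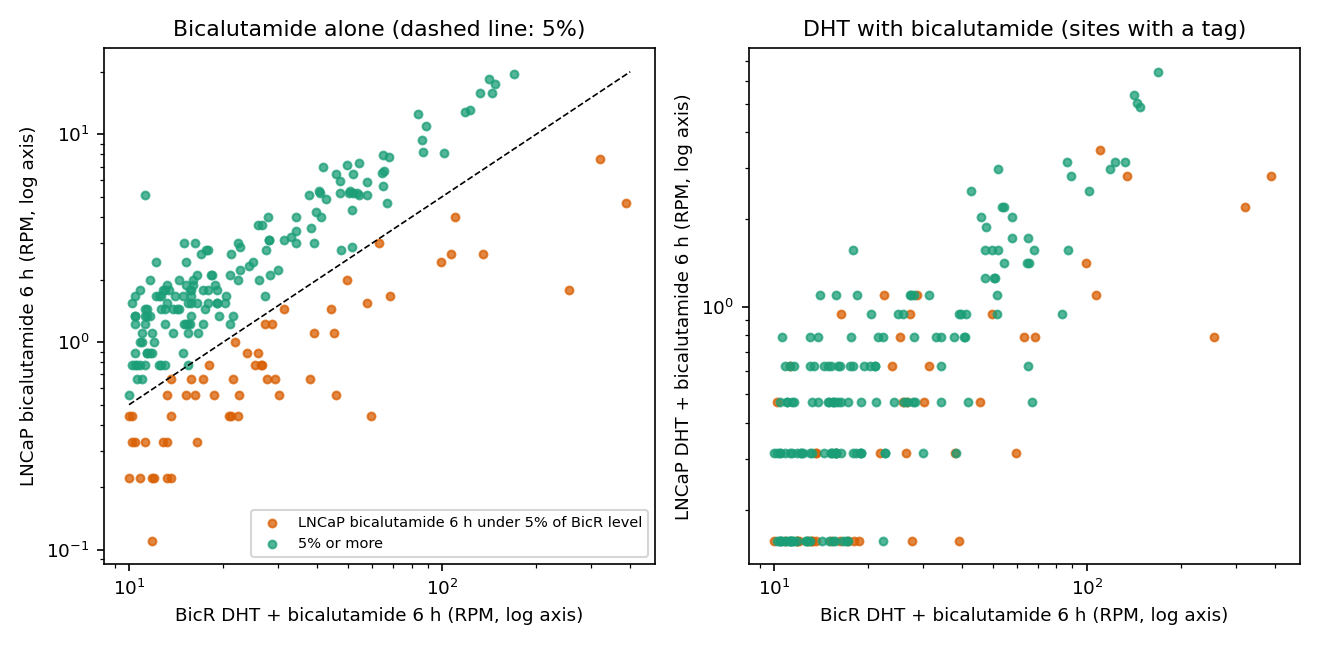
Level in the LNCaP bicalutamide library (left) and in the LNCaP combination library (right) against the BicR-labelled combination library, all in RPM on log axes, with 1 point per site, coloured by the 5% split. Orange points (58 sites) lie below the green ones (161 sites) on the left by the split itself. The right panel shows only the 204 sites with a tag in the LNCaP combination library, and there the colours overlap. Most of the sites left out on the right are of the low group.

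The genome placement of the sites was not used by the rule. Members had a site on the opposite strand within 1000 bp in 3 of 219 cases (1.37%), against 3314 of the 13075 other sites (25.3%). They had another listed site on the same strand within 1000 bp in 16 cases (7.31%), against 12.2% of the other sites, and all 16 were high-ratio sites, 9.94% of the 161. The median distance to the nearest listed site was 66.4 kb for the 219 and 14.4 kb for the other sites, and 152 kb in the low group against 60.0 kb in the high group. The plus strand held 53.9% of the members and 50.7% of the other sites. These shares are descriptions without a test. Sites that start close together on opposite strands and run apart are known as divergent promoters. The opposite-strand counts took sites in any orientation, so they are not counts of such promoters.

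Chromosome 11 held the most members, 24 of its 787 listed sites (3.05%), which is 11.0% of the members against 5.92% of all sites. Chromosome 1 held 22 of 1330 (1.65%) and chromosome 19 held 8 of 969 (0.826%). Most members stood alone. Linked within 1000 bp on 1 strand, 13 members formed 6 groups and 206 were single. The largest group was 3 sites over 736 bp on chromosome 12 (plus), with 27.9 RPM at 20522630, 15.8 RPM at 20522804 and 12.0 RPM at 20523366 in the BicR-labelled combination library. A pair on chromosome 11 (plus) had 16.4 RPM at 126197079 and 34.1 RPM at 126197293, and a pair on chromosome 1 (plus) had 37.7 RPM at 207262205 and 10.8 RPM at 207262930.

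Sites lay on both sides of the 1 RPM ceiling. The members nearest to the 10 RPM minimum were on chromosome X at 81485752 (plus), chromosome 16 at 86600435 (plus) and chromosome 7 at 8058287 (minus), each with 10.0 RPM. No site lay just below it, because every listed site reached 10 RPM in at least 1 library. The members nearest to the 1 RPM ceiling had a highest other value of 0.972 RPM (chromosome 1 at 16126724, minus), 0.936 RPM (chromosome 12 at 15114535, minus) and 0.910 RPM (chromosome 12 at 71551779, minus). The sites just over it had 1.01 RPM (chromosome 11 at 119187840, minus), 1.04 RPM (chromosome 6 at 10415498, minus) and 1.09 RPM (chromosome 10 at 95242091, minus), with 32.3, 18.6 and 22.3 RPM in the BicR-labelled combination library. A further 34 sites outside the rule had at least 10 RPM there and at least 5-fold the highest of the 15, with a median of 33.1 RPM (10.0 to 921 RPM). At 33 of these 34 the LNCaP bicalutamide library was above each of the 7 other LNCaP libraries, against 9.82% of all sites. The LNCaP combination library was above each of the 7 at 23 of the 34, against 9.00% of all sites. The 34 were chosen by their level over the 15, which include these 7, so both counts are a description. The pooled ratio of the LNCaP bicalutamide to the BicR-labelled level was 12.6%.

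The time course, which the rule did not use, was searched for the same sites. Of the 219, 9 (4.11%) lay inside a listed cluster of start sites. By shared name, 8 of the 219 matched a cluster, whereas 64.3% of all sites did. At 8 of the 9 clusters nearly all tags were in 2 libraries of R1881 replicate 2. The 3 h replicate 2 library held 503 tags (195 RPM) over the 8 clusters and the 12 h replicate 2 library 137 tags (53.9 RPM). The other 12 libraries held 6 tags in all, at most 2 in any of them, and 7 of the 12 held none. Each of the 8 had 13.6 to 44.6 RPM at 3 h in replicate 2, and 0 tags at 3 h in replicate 1.

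**Figure D5:**
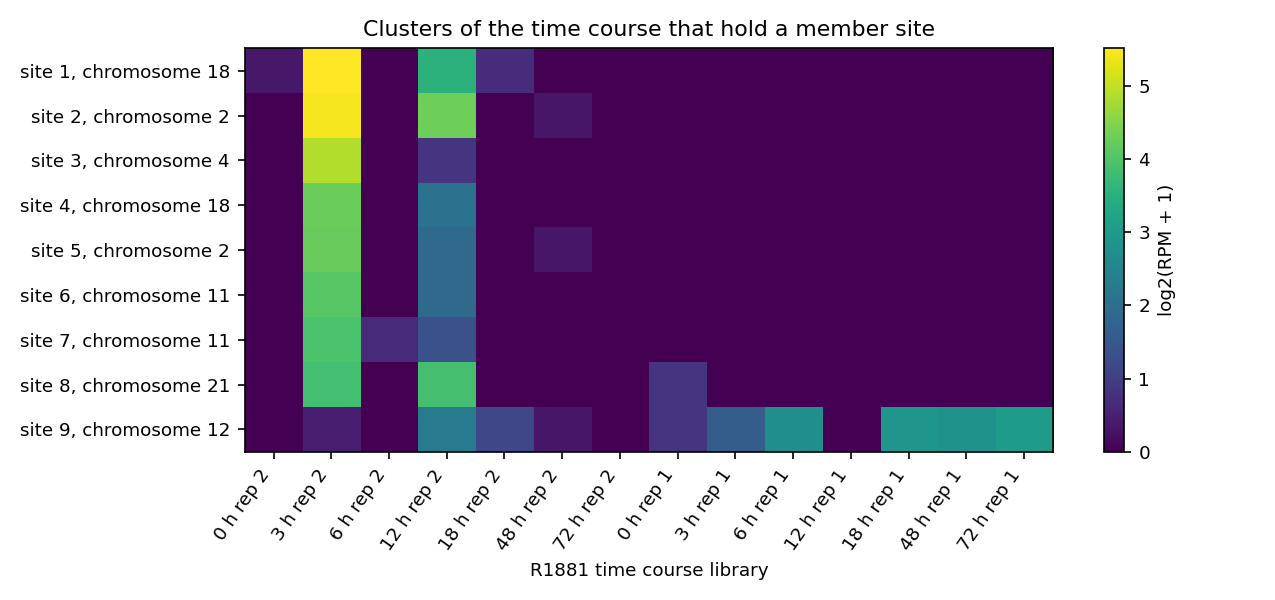
Level, as log2(RPM + 1), of the 9 clusters that hold a member in each time course library, with replicate 2 left of replicate 1 and times in order within each. Sites 1 to 8 reach 13.6 to 44.6 RPM at 3 h of replicate 2 and 0.786 to 18.5 RPM at 12 h of replicate 2, with at most 0.791 RPM in any other library, and site 9 on chromosome 12 has 1 to 10 tags scattered over libraries of both replicates.

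The cluster at 69929218 on chromosome 18 (plus) had 44.6 RPM (115 tags) at 3 h and 10.6 RPM (27 tags) at 12 h in replicate 2. The cluster at 197059062 on chromosome 2 (plus) had 42.2 RPM (109 tags) and 18.5 RPM (47 tags), and that at 170665322 on chromosome 4 (plus), listed at a single base, 28.3 RPM and 0.786 RPM. Those at 76386260 on chromosome 18 (minus), 185862476 on chromosome 2 (minus), 9461637 on chromosome 11 (plus) and 130614248 on chromosome 11 (plus) had 14.3 to 18.2 RPM at 3 h and 1.57 to 3.14 RPM at 12 h. The cluster at 39082886 on chromosome 21 (plus) was the exception, with 13.6 RPM at 3 h and 13.8 RPM at 12 h. The ratio of the 12 h to the 3 h level thus ran from 0.0278 to 1.01.

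The R1881 table was also searched by its own values, with limits set after these had been seen. Of its 19534 clusters, 8 had at least 10 RPM at 3 h in replicate 2 and under 1 RPM in each of the 12 libraries other than 3 h and 12 h of replicate 2, and all 8 hold a member of the set. Of these 8 members 6 are low-ratio sites, of 58 low-ratio sites in all. The exceptions are the site on chromosome 2 at 185862476, with a ratio of 5.59%, and that on chromosome 4 at 170665322, with 16.7%. Of the 161 high-ratio sites 3 lay in a cluster of that table, and the IGFBP7 site did not. Since 96.1% of its clusters reached 10 RPM in some library, a site with fewer tags may not have been listed. Time course libraries held 128463 to 3837493 tags, and 3 tags were worth 0.691 to 19.4 RPM, which limits what could be seen in replicate 1.

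Replicate 2 was compared with replicate 1 over the 7 times with edgeR's quasi-likelihood test on the tag counts, with time as a term. Of 15999 clusters tested, 1592 (9.95%) were higher in replicate 2 and 1041 (6.51%) were lower at an adjusted p under 0.05. Of the 9 member clusters 3 passed the filter on low counts, through the libraries in which they were high. Passing that filter already required a difference, so their fitted values are a description and not independent evidence that the replicates differ there. They were, for the cluster on chromosome 2 at 197059062, a higher level in replicate 2 (log2 6.57, SE 1.29, adjusted p = 0.00237), and likewise for that on chromosome 18 at 69929218 (log2 6.48, SE 1.35, adjusted p = 0.00352). The cluster on chromosome 21 at 39082886 did not pass (log2 3.07, SE 1.37, adjusted p = 0.138). Where replicate 1 had no tag, the fitted log2 depends on the prior count. Against 3 tags in the 3 h replicate 1 library, the 3 h replicate 2 level was at least 6.76-fold higher at 197059062 and at least 7.13-fold higher at 69929218.

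The values also rest on few libraries. With DESeq2, 0 of the 3 clusters passed, and the fitted log2 values were -0.73 for chromosome 2 at 197059062, -0.24 for chromosome 18 at 69929218 and -1.79 for chromosome 21 at 39082886. Without the 3 h library of replicate 2 the edgeR call was lost at both (adjusted p = 0.150 for chromosome 2 at 197059062 and 0.247 for chromosome 18 at 69929218), and also without the 3 h library of replicate 1 (0.0633 and 0.127).

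The effect of R1881 on the members could not be tested with these tags. Between 48 h and 0 h, 223 of 15999 clusters (1.39%) were higher and 79 (0.494%) lower in edgeR's quasi-likelihood test. With the replicate number as a block, 793 were higher and 573 lower. Of the 3 member clusters tested, 0 passed in edgeR with or without the block, 0 passed in DESeq2, and 0 had an unadjusted p under 0.05 in edgeR. They held 1 tag at 48 h, on chromosome 2 at 197059062, and 2 tags at 0 h, on chromosomes 18 and 21, which is too few for any call. The other 6 clusters were not tested.

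Which cell type the tags fit could not be read from the loci. Of the 219 positions, 1 is paired with a gene name here, and lists of marker genes for fibroblasts, endothelium, blood cells, liver, nerve, muscle, basal and luminal prostate epithelium could not be placed on hg19 positions, so they were not analysed here. IGFBP7 is known from more than 1 of these cell types.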

How the data were processed

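CAGE tags of 32 libraries of LNCaP and BicR cells were analysed from 2 tables. Per the file headers, each gives a raw tag count per site and a normalized value. The authors' deposited RPM values are the tag counts times 1 factor per library. The submitters' processing notes give hg19. The aligner, the cluster caller and the filters are not given in the sources used here. Site names in the files count from 0 (274 R1881 names equal the 0-based start of their cluster), so positions are given counted from 1.

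The 219 members and the lists were chosen with earlier results of these data known. Named were the 12 strongest members, the IGFBP7 site, and the members and other sites nearest the limits of the rule. Also named were the 3 highest members in each of the LNCaP bicalutamide and LNCaP combination libraries. The largest groups and the clusters called in the time course were named as well. Described after their values were seen were line-specific sites, the 5% split, the remaining R1881 clusters that hold a member and single examples. Shares have exact (Clopper-Pearson) 95% binomial intervals.

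Time course counts were tested in R 4.3.3 with edgeR 4.0.16 (TMM, filterByExpr with a minimum count of 10, quasi-likelihood F test, Benjamini-Hochberg over all clusters tested, threshold 0.05), and with DESeq2 1.42.0 as an alternative. SE is the size of the log2 value over the square root of F. To check pairing, each library's departure from the mean of its time was correlated between libraries with the same number. All 21 of 21 pairs gave 0.142 to 0.566 (median 0.332), and the replicate numbers are therefore taken as pairs. Where the labels name no separate cultures, p-values measure the spread between these libraries, which may be technical.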

Additional observations from a re-analysis of the deposited data

How the results depend on the processing

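The set held 219 sites, and 104 with a 20 RPM minimum. Ceilings of 0.5 and 2 RPM and scaling to the table's own tags kept the number within 1.5 times. The split at 4% and 6% and line-specific minimums of 3 and 10 RPM did so for their results. A 5 RPM minimum gave 219 again, which was nearly fixed because every listed site reached 10 RPM in at least 1 library. Presence, 157 sites in the LNCaP bicalutamide library and 47 in the LNCaP combination library at 1 RPM, came to 36 and 3 sites at 5 RPM, and to 125 in the second at 3 tags. Scaled to the table's own tags, the summed levels of the BicR-labelled combination, LNCaP bicalutamide and LNCaP combination libraries were 9215, 711 and 203. Between R1881 replicates, 2 member clusters were higher and 0 lower. The 3 tested passed the filter through the libraries in which they were high. The member counts and calls given here are therefore a description and not evidence that the replicates differ there. The higher count was 0 of 3 tested with DESeq2. It was also 0 without the time term and with replicate 2 lacking its 3 h and 12 h libraries (added after seeing the data), where 0 members passed the filter, so these say nothing about stability. It was 0 to 5 on leaving out 1 library, with 3 to 9 members tested. The lower count was 1 without the filter and 0 to 1 on leaving out 1 library. DESeq2 turned the log2 values to -0.73 (chromosome 2 at 197059062), -0.24 (chromosome 18 at 69929218) and -1.79 (chromosome 21 at 39082886), and the cause was not tested. The last passed in edgeR without the 0 h library of replicate 1 (adjusted p = 0.0435) or of replicate 2 (0.0427). Over all clusters, the 1592 higher and 1041 lower were 544 and 233 without the time term, 960 and 472 with those libraries left out, and 1036 to 1690 and 599 to 1073 on leaving out 1 library. For 48 h against 0 h, the 223 higher and 79 lower were 793 and 573 with the replicate block, 137 and 49 with those libraries left out, and 10 to 62 and 5 to 17 on leaving out 1 library. The replicate block changed no member's call, with too few tags for any. Depth limits replicate 1 of the time course most.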

Other observations

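In the deposited table of LNCaP and BicR sites, whose rows are not in genome order, 175 of the 219 members lay within 183 consecutive rows. This stretch was picked as the one with the most members at a share of at least 0.9. What orders the rows was not tested, so the grouping is a description.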
